A study of Homo sapiens with 4 samples.

Results

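The 10 genes described here encode Wnt ligands (WNT5A, WNT5B, WNT7A, WNT7B and WNT10A), Frizzled receptors (FZD2, FZD6 and FZD7), the secreted antagonist DKK1 and AXIN2, a feedback inhibitor. They are 10 of the 19775 genes represented on the arrays by probe sets with a single gene symbol. All 20 probe sets annotated to 1 of these symbols were taken, and the probe set with the highest mean intensity over the 4 arrays stands for its gene. The arrays came from MCF10A, a human line of mammary epithelium that does not form tumours, grown with horse serum, EGF, hydrocortisone, insulin and cholera toxin. Cells of the control group had been infected with retrovirus made from the empty pQCXIH vector (vector), and those of the other groups with the same vector expressing wild-type YAP (YAP-WT), YAP-S94A, which is changed in the part that binds TEAD transcription factors, or YAP-W1W2, in which both WW domains are mutated. Every group therefore carried pQCXIH, and the parental cells were not analysed here. There was 1 array per group, so each difference below is between 2 arrays, has no replicate error and was given no test.

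Wnt proteins are secreted, lipid-modified ligands that bind Frizzled receptors together with co-receptors. With LRP5 or LRP6 they stabilise beta-catenin, which enters the nucleus and drives transcription with TCF and LEF factors. With ROR or RYK receptors, ligands such as WNT5A signal to the cytoskeleton without beta-catenin. DKK1 binds LRP5 and LRP6 and blocks the beta-catenin branch, and AXIN2 is both a part of the complex that destroys beta-catenin and a widely used readout of its activity. YAP, the coactivator restrained by the Hippo pathway, reaches most of its target genes through TEAD factors.

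The values given are linear array intensities. The floor was 72.9, the 40th percentile of all intensities, and lower readings were raised to it before log2 was taken. Where 1 of the arrays compared was at the floor, the fold is a lower bound and reads "at least". A gene was called measured when its mean intensity was at least 113.6, the median over probe sets, and 12759 genes were. Of the 10 Wnt genes 6 were measured, namely WNT5A, WNT7B, FZD2, FZD6, FZD7 and DKK1. The other 4, WNT5B, WNT7A, WNT10A and AXIN2, were dim and are given by their intensities, with no fold. Intensities of different probe sets are not comparable with each other, so levels are compared only between arrays within a probe set.

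The arrays had median intensities of 112.3 to 116.2, and all 5 epithelial markers examined, KRT5, KRT14, CDH1, LAMB3 and ITGB4, were above the floor on the 4 arrays. Their summed intensity ran from 84644.8 to 110557, but these markers did not move together. LAMB3 read 8898.7 for vector and 24878.7 for YAP-S94A, while KRT5 read 30819.8 and 32347.6. ITGB4 was below its vector value of 6564.8 only in YAP-W1W2, at 4626.9. The fibroblast markers COL1A1, COL1A2, COL3A1, PDGFRA and PDGFRB summed to 706.1 for vector, 1408.1 for YAP-WT, 867 for YAP-S94A and 1149.3 for YAP-W1W2, and 2 of these 5 were measured. The fibroblast sum was higher in YAP-WT along with COL1A1, at 451.7 for vector and 1105.4 for YAP-WT. In YAP-S94A the sum was above that for vector although COL1A1 was lower, at 409.9. The 5 fibroblast markers did not move together. PDGFRB read 86.4 for vector and 16.8 for YAP-WT, COL1A2 was highest in YAP-W1W2, at 232.5, and PDGFRA in YAP-S94A, at 134.6. Of the endothelial markers, CDH5 and VWF lay at or below the floor on every array and PECAM1 did not, and the 3 summed to 498.5 to 718.9. The immune markers PTPRC, CD3E and CD14 summed to 125.5 to 397, but did not move together. PTPRC lay below the floor except for 74.6 in YAP-WT, CD3E was above it only in YAP-WT, at 256.1, and CD14 was highest in vector, at 311.9 against 61.7 for YAP-WT, 143.9 for YAP-S94A and 19.3 for YAP-W1W2. The part of other cell types in the Wnt values was not tested, and in such whole-culture RNA fewer cells expressing a gene and less of its RNA per cell cannot be told apart. The spiked bacterial control bioB was lower than in vector by log2 differences of −0.47 for YAP-WT, −0.83 for YAP-S94A and −1.28 for YAP-W1W2. The spikes bioC and bioDn were also lower, while creX differed by 0.02, −0.20 and −0.51 in the same order. The human actin and GAPDH controls were higher, by 0.43, 0.68 and 0.80 and by 0.22, 0.44 and 0.44. The part of such array differences in the results was not tested. The main YAP1 probe set read 4085.5 for vector, 3461.5 for YAP-WT, 4208.4 for YAP-S94A and 4657 for YAP-W1W2, and whether it lies within the expressed constructs is not known, so it does not check the labels. The median measured gene differed from vector by 0.14, 0.14 and 0.10 (log2), in the same order.

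Among the ligands, WNT5A, the best known activator of beta-catenin-independent Wnt signalling, spanned the widest range of the 6 measured genes. Its main probe set read 1975.9 for vector, 5462.2 for YAP-WT, 191.0 for YAP-S94A and 911.6 for YAP-W1W2. WNT5A was thus highest with wild-type YAP, and in both mutant arrays it lay below the vector array, furthest in YAP-S94A. Against vector it was 2.76-fold higher with YAP-WT, 10.3-fold lower with YAP-S94A and 2.17-fold lower with YAP-W1W2. Between the YAP forms, WNT5A was 28.6-fold lower in YAP-S94A and 5.99-fold lower in YAP-W1W2 than in YAP-WT, and 4.77-fold higher in YAP-W1W2 than in YAP-S94A. Ordered by their log2 difference of YAP-S94A from YAP-WT, with values set to the floor included, WNT5A stood at place 5 from the lowest among the 12759 measured genes.

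The second WNT5A probe set gave the same order of arrays, with 1494.0 for vector, 3484.4 for YAP-WT, 97.7 for YAP-S94A and 368.3 for YAP-W1W2. Its differences from vector were 1.22 for YAP-WT, −3.93 for YAP-S94A and −2.02 for YAP-W1W2 on the log2 scale, against 1.47, −3.37 and −1.12 by the main probe set. Relative to YAP-WT it was 35.7-fold lower in YAP-S94A and 9.46-fold lower in YAP-W1W2. The depth of the YAP-W1W2 difference therefore depended on the probe set, at 2.17-fold or 4.06-fold lower than vector. The probe sets differed by less in the other contrasts with vector, by 0.25 (log2) in YAP-WT and 0.56 in YAP-S94A. Of the 5954 genes with at least 2 measured probe sets, the median gap between a gene's probe sets was 0.53 for YAP-WT and 0.58 for YAP-S94A. For YAP-W1W2 the median gap was 0.62 and that of WNT5A 0.90, which 33.8% of those genes reached.

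**Figure D1:**
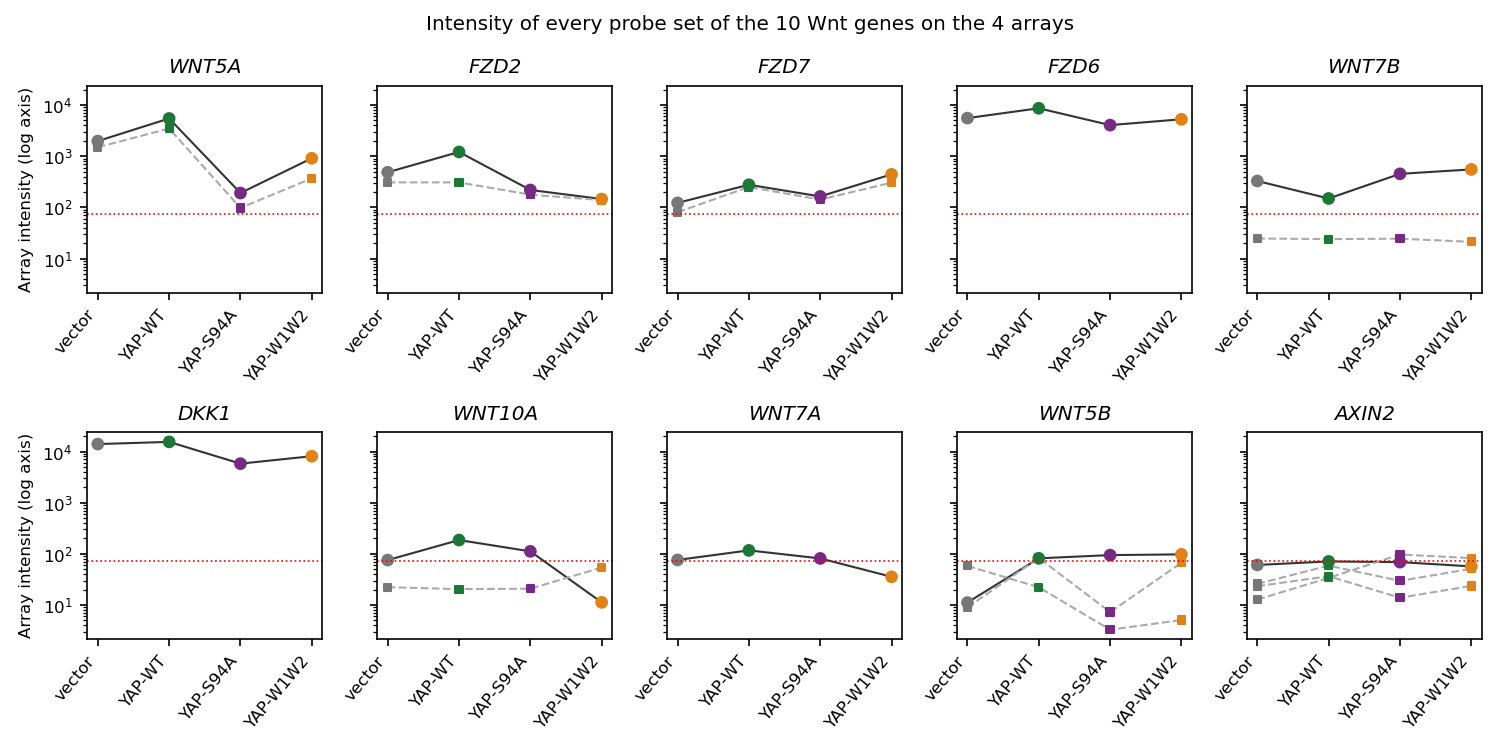
Array intensity (log axis) of each probe set on the 4 arrays, 1 panel per gene; circles on solid lines are the main probe set, squares on dashed lines the others, and the red dotted line is the floor of 72.9. WNT5A reads 5462.2 in YAP-WT and 191.0 in YAP-S94A, FZD7 is highest in YAP-W1W2, and most points of WNT5B and AXIN2 lie at or below the floor.

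Because S94A affects TEAD binding, the promoter stretches of the genes were searched for the TEAD core motif GGAATG on both strands, in the 250 bases before the gene start in RefSeq (GRCh38.p14). Windows were matched for 5 of the 10 genes, namely WNT5A, WNT5B, WNT7A, WNT10A and DKK1, with 2 start sites each for WNT5A and WNT5B, 7 windows in all. Of these 7, the DKK1 window alone held the motif, 1 time, starting at position −50 from the gene start, and 11.9% of all 34943 promoter windows of this length hold it. The WNT5A windows are shown since this gene differed most between the YAP forms, and DKK1 since it carries the motif. CCN2, a matricellular gene and known YAP target, is shown for comparison, with GGAATG at positions −169, −104 and −95. The windows lie at chr3:55487307-55487556 (WNT5A, distal start, minus strand), chr3:55481399-55481648 (WNT5A, proximal start, minus strand), chr10:52314031-52314280 (DKK1, plus strand) and chr6:131951373-131951622 (CCN2, minus strand). Each is written from 5′ to 3′ along the gene, and capitals mark GGAATG.
WNT5A, distal start: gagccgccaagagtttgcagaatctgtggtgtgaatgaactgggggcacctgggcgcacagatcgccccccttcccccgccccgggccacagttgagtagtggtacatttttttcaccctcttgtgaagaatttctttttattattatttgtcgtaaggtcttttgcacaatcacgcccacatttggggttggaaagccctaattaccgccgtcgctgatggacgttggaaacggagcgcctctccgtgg
WNT5A, proximal start: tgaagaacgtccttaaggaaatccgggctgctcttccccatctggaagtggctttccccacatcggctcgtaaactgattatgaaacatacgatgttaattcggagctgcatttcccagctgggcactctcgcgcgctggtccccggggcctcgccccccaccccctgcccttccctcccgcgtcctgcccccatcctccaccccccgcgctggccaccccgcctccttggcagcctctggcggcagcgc
DKK1: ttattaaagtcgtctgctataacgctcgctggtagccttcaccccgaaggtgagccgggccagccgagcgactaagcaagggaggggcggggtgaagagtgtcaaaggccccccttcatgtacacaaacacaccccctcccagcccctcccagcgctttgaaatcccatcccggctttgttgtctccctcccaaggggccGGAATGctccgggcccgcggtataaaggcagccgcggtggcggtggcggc
CCN2: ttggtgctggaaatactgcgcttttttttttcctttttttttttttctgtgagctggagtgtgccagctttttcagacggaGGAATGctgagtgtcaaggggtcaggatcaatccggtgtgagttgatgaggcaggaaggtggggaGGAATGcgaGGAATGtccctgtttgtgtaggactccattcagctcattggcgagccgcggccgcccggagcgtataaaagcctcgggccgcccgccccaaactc

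The exact string CTTTGAT, a form of the TCF/LEF core, was in 0 of the 7 windows of the Wnt genes on either strand. It was in 2.27% of all promoter windows, and other forms of this core were not searched. The CCN2 window did not hold CTTTGAT either. These are matches of letters within 250 bases, and binding was not measured. On the same arrays CCN2 read 322.8 for vector, 5523.3 for YAP-WT, 636.5 for YAP-S94A and 8074.9 for YAP-W1W2. CCN2 was thus highest in YAP-W1W2, far above vector, whereas WNT5A lay below vector in that array.

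WNT7B, a ligand of the beta-catenin branch in several epithelia, ran opposite to WNT5A in its comparison of YAP-WT with vector. It read 327.9 for vector, 149.3 for YAP-WT, 452.3 for YAP-S94A and 552.2 for YAP-W1W2, so YAP-WT was the lowest array and both mutants were above vector. WNT7B was 2.20-fold lower in YAP-WT than in vector, and its log2 differences from vector of 0.46 in YAP-S94A and 0.75 in YAP-W1W2 stayed under 2-fold. Relative to YAP-WT it was 3.03-fold higher in YAP-S94A and 3.70-fold higher in YAP-W1W2. These values rest on 1 probe set whose _x_at suffix marks probes that may also bind other transcripts, and the other WNT7B probe set read 21.2 to 24.7, under the floor on every array.

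The remaining ligands were dim. WNT10A read 75.7 for vector, 186.4 for YAP-WT, 112.1 for YAP-S94A and 11.3 for YAP-W1W2, so that YAP-WT was the highest array and YAP-W1W2 the only one under the floor. Its vector value lay just above the floor. Its second probe set lay under the floor on every array, at 20.5 to 54.1. WNT7A, with 1 probe set, read 76.2 for vector, 117.1 for YAP-WT, 81.6 for YAP-S94A and 35.7 for YAP-W1W2, with vector and YAP-S94A near the floor and YAP-W1W2 under it. WNT5B, the close relative of WNT5A, had 3 probe sets with values from 3.3 to 97.9. Its main probe set read 11.2 for vector, 81.9 for YAP-WT, 94.7 for YAP-S94A and 97.9 for YAP-W1W2, and no difference between arrays could be resolved so near the floor.

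Of the receptors, FZD2, a Frizzled that can receive WNT5A, was highest in YAP-WT and lowest in YAP-W1W2. Its main probe set read 485.4 for vector, 1210.6 for YAP-WT, 219.0 for YAP-S94A and 145.8 for YAP-W1W2. Against vector, FZD2 was 2.49-fold higher with YAP-WT, 2.22-fold lower with YAP-S94A and 3.33-fold lower with YAP-W1W2. Like WNT5A it was therefore at least 2-fold higher than vector with wild-type YAP and at least 2-fold lower with each mutant, by the main probe set, in comparisons that share the vector array. The order of the mutants differed, since YAP-W1W2 against YAP-S94A gave a log2 difference of 2.25 for WNT5A and −0.59 for FZD2. Relative to YAP-WT, FZD2 was 5.53-fold lower in YAP-S94A and 8.30-fold lower in YAP-W1W2, at place 10 from the lowest of the measured genes in the latter comparison.

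The second FZD2 probe set did not show the YAP-WT difference. It read 308.7 for vector, 307.6 for YAP-WT, 177.2 for YAP-S94A and 139.0 for YAP-W1W2, so vector and YAP-WT were level and both mutants were lower. Its log2 differences were −0.01 for YAP-WT, −0.80 for YAP-S94A and −1.15 for YAP-W1W2 against vector. The gap of 1.32 between the FZD2 probe sets in YAP-WT against vector was matched or exceeded by 11.6% of the 5954 genes with at least 2 measured probe sets. Relative to YAP-WT, the second probe set was 1.74-fold lower in YAP-S94A, under 2-fold, and 2.21-fold lower in YAP-W1W2, against 5.53-fold and 8.30-fold by the main one. These gaps were 1.67 and 1.91 (log2), which 5.26% and 3.36% of those genes reached. Both probe sets placed FZD2 lower in each mutant than in vector, though by 1.74-fold for YAP-S94A on the second, whereas its elevation in YAP-WT rested on the main one.

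FZD7, a receptor with a role in epithelial stem and progenitor cells, followed another order, with vector lowest and YAP-W1W2 highest. It read 122.5 for vector, 277.0 for YAP-WT, 163.7 for YAP-S94A and 442.9 for YAP-W1W2. FZD7 was 2.26-fold higher in YAP-WT and 3.62-fold higher in YAP-W1W2 than in vector, and its log2 difference was 0.42 in YAP-S94A. The second probe set, at 80.5, 250.4, 142.0 and 303.9 in the same order of arrays, gave 3.11-fold and 3.78-fold higher values for YAP-WT and YAP-W1W2. These 2 folds rest on a vector value near the floor. By the main probe set FZD7 was 2.71-fold higher in YAP-W1W2 than in YAP-S94A, and by the other 2.14-fold higher. FZD7 and FZD2 thus stood on opposite sides of vector in YAP-W1W2, at log2 differences of 1.85 and −1.74.

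FZD6, a Frizzled linked to planar polarity of epithelia, varied least of the 6 measured genes. It read 5550.0 for vector, 8645.4 for YAP-WT, 4052.4 for YAP-S94A and 5267.8 for YAP-W1W2, with YAP-WT highest and YAP-S94A lowest. The vector and YAP-W1W2 arrays differed by a log2 value of −0.08, and YAP-WT lay 0.64 above vector. The only FZD6 difference of at least 2-fold was between the mutant and wild-type forms, where YAP-S94A was 2.13-fold lower than YAP-WT. It rested on 1 probe set.

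DKK1, the secreted antagonist, read 13987.0 for vector, 15426.8 for YAP-WT, 5797.6 for YAP-S94A and 8105.8 for YAP-W1W2. Vector and YAP-WT were nearly level, at a log2 difference of 0.14 that equals the shift of the median gene, and both mutants were lower. DKK1 was 2.41-fold lower in YAP-S94A than in vector, and its log2 difference in YAP-W1W2 was −0.79. Relative to YAP-WT it was 2.66-fold lower in YAP-S94A and 1.90-fold lower in YAP-W1W2. Its values rest on 1 probe set, and its promoter window printed above holds GGAATG, starting 50 bases before the gene start.

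AXIN2 lay at or near the floor. Its main probe set read 60.8 for vector, 71.2 for YAP-WT, 69.1 for YAP-S94A and 57.0 for YAP-W1W2, all under the floor, so no fold is given. Of its other 3 probe sets, 1 lay above the floor on any array, at 97.3 in YAP-S94A and 82.7 in YAP-W1W2. A change in AXIN2 was not detectable at these intensities.

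**Figure D2:**
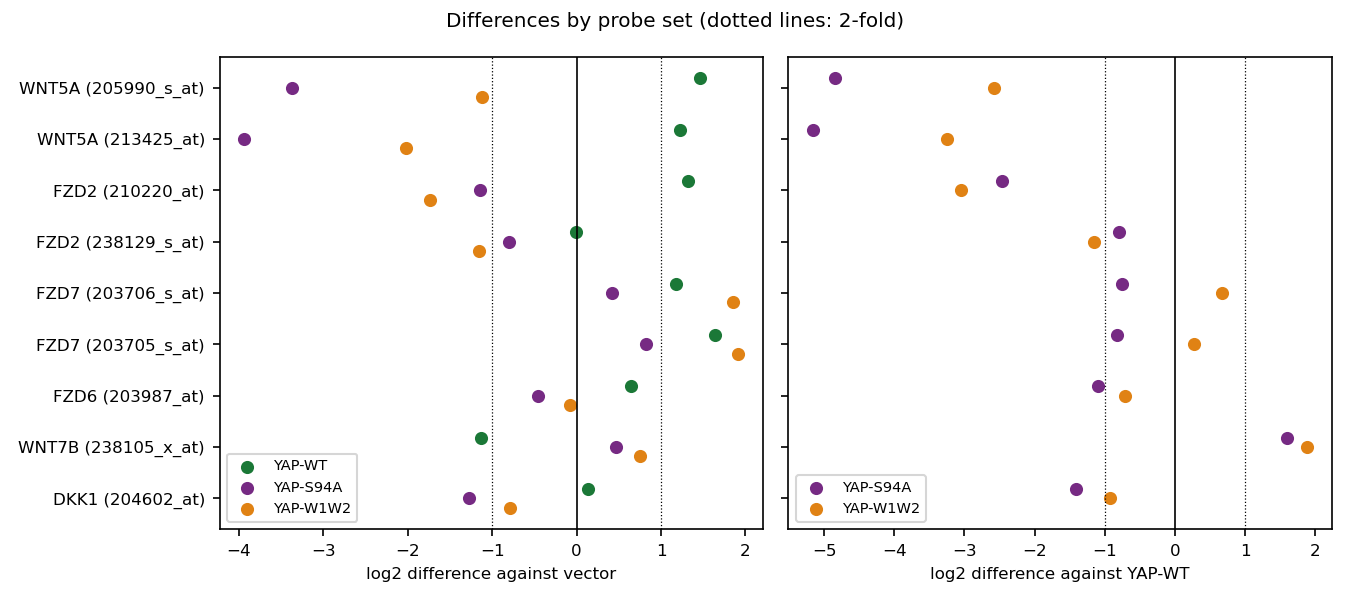
Log2 differences of the 9 probe sets with a mean intensity of at least 113.6, against vector (left) and against YAP-WT (right), coloured by YAP form, with dotted lines at 2-fold. Both WNT5A probe sets lie right of 0 in YAP-WT and left of 0 in the mutants, while the second FZD2 probe set lies at −0.01 in YAP-WT.

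Counted over the 6 measured Wnt genes, YAP-WT had 4 at least 2-fold different from vector, where 14.1% of all measured genes were. WNT5A, FZD2 and FZD7 were higher (9.11% of all) and WNT7B lower (4.95% of all), and the median log2 difference of the 6 was 0.91, against 0.14 over all measured genes. This count was 2 with an offset of 50 in place of the floor, when FZD7 and WNT7B stayed under 2-fold, and 2 with the mean over probe sets, when FZD2 and WNT7B did. The shares over all measured genes were then 11.2% and 8.97%. In YAP-S94A 3 of 6 differed from vector at least 2-fold (16.8% of all measured genes), and all 3, WNT5A, FZD2 and DKK1, were lower (6.53% of all, with 10.3% higher), with a median of −0.80 against 0.14. This count was 2 with the offset of 50 and 2 with the mean over probe sets, as FZD2 then stayed just under 2-fold, at log2 differences of −0.99 and −0.97. Shares over all measured genes were 13.4% and 11.3% under these settings. In YAP-W1W2 3 of 6 differed (19.8% of all), with FZD7 higher (11.4% of all) and WNT5A and FZD2 lower (8.4% of all), and the median was −0.43 against 0.10.

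Between the YAP forms, 5 of 6 differed at least 2-fold in YAP-S94A against YAP-WT, where 11.3% of all measured genes did. WNT5A, FZD2, FZD6 and DKK1 were lower (6.27% of all) and WNT7B was higher (5.06% of all), with a median of −1.25 against 0.01. In YAP-W1W2 against YAP-WT 3 of 6 differed (9.5% of all), with WNT5A and FZD2 lower (5.59% of all), WNT7B higher (3.91% of all) and a median of −0.82 against −0.04. In YAP-W1W2 against YAP-S94A 2 of 6 differed (9.43% of all), WNT5A and FZD7, both higher (4.98% of all, with 4.45% lower). With the mean over probe sets WNT7B stayed under 2-fold in both mutants against YAP-WT, which left 4 and 2 genes, where 7.07% and 5.6% of all measured genes differed. The genes were chosen with results of these arrays known, so these counts describe the 6 genes and are no evidence about Wnt genes at large.

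**Figure D3:**
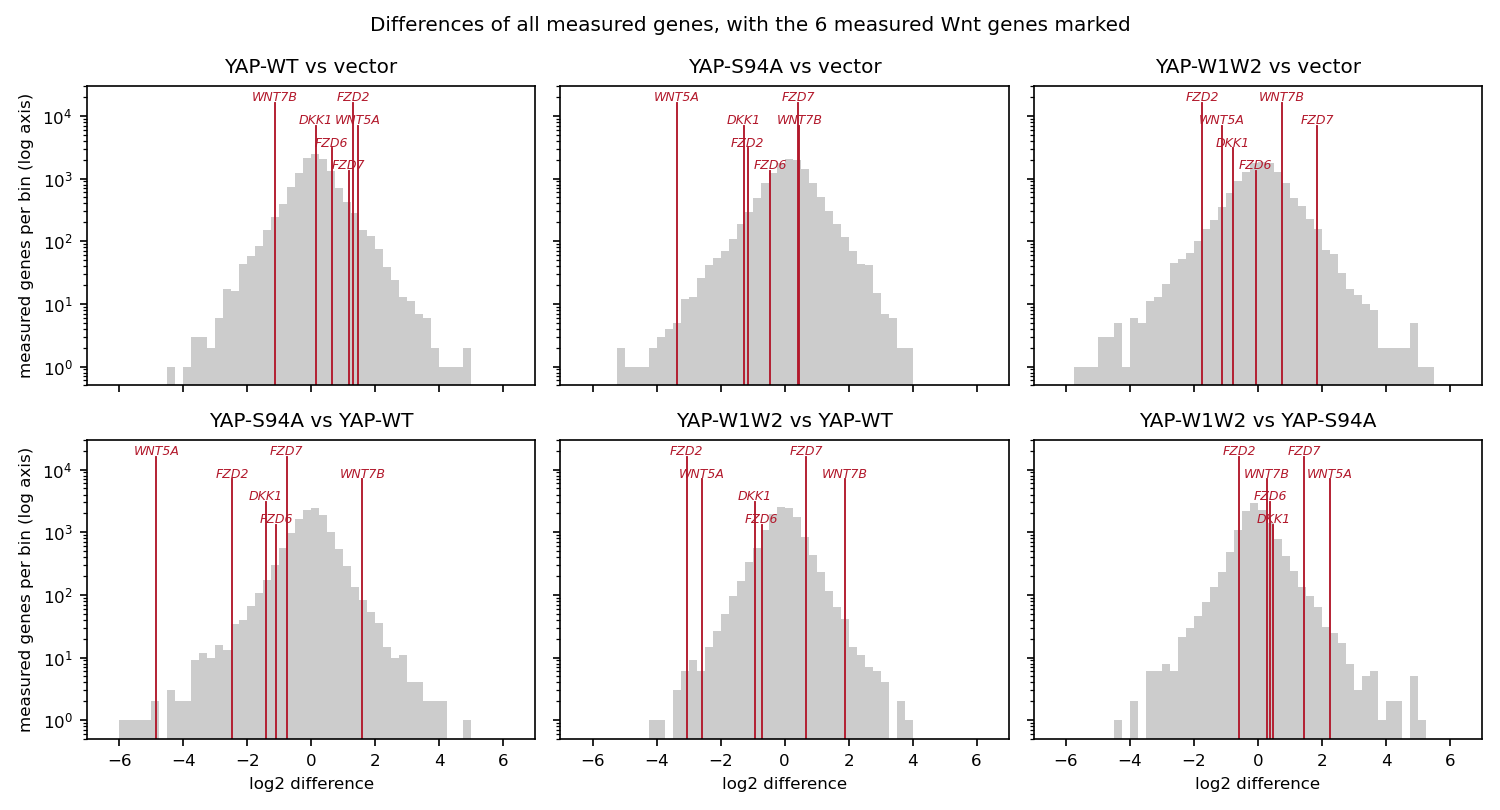
Histograms of the log2 differences of the 12759 measured genes in the 6 comparisons (bins of equal width, log axis of gene counts), with red lines at the 6 measured Wnt genes. WNT5A stands in the far left tail for YAP-S94A against YAP-WT, at −4.84, and FZD2 in that for YAP-W1W2 against YAP-WT, at −3.05.

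The genes whose profile over the 4 arrays was nearest to that of WNT5A and of FZD2 were found among 11893 measured genes above the floor on every array, by the Euclidean distance between log2 values centred on the median of their 4 arrays. Nearest to WNT5A were the lipid kinase PIK3C2B (distance 0.85), the calcium channel subunit CACNA2D3 (1.02), the ferric reductase CYBRD1 (1.08), the keratin KRT4 (1.12) and the protease PAPPA (1.17). PIK3C2B and PAPPA read 74.0 and 75.0 in YAP-S94A, just above the floor. Nearest to FZD2 were the cytochrome CYP4B1 (0.75), NACA4P (0.77), the transporter SLC46A3 (0.79), the chloride channel BEST1 (0.80) and LINC01279 (0.86). FZD2 itself lay at a distance of 2.32 from WNT5A, with 69 genes outside the Wnt set nearer to WNT5A. Seen from FZD2, however, 4481 such genes were nearer than WNT5A, so the closeness of the pair depended on the gene taken as the start. With 4 points per profile such likeness is a description only.

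**Figure D4:**
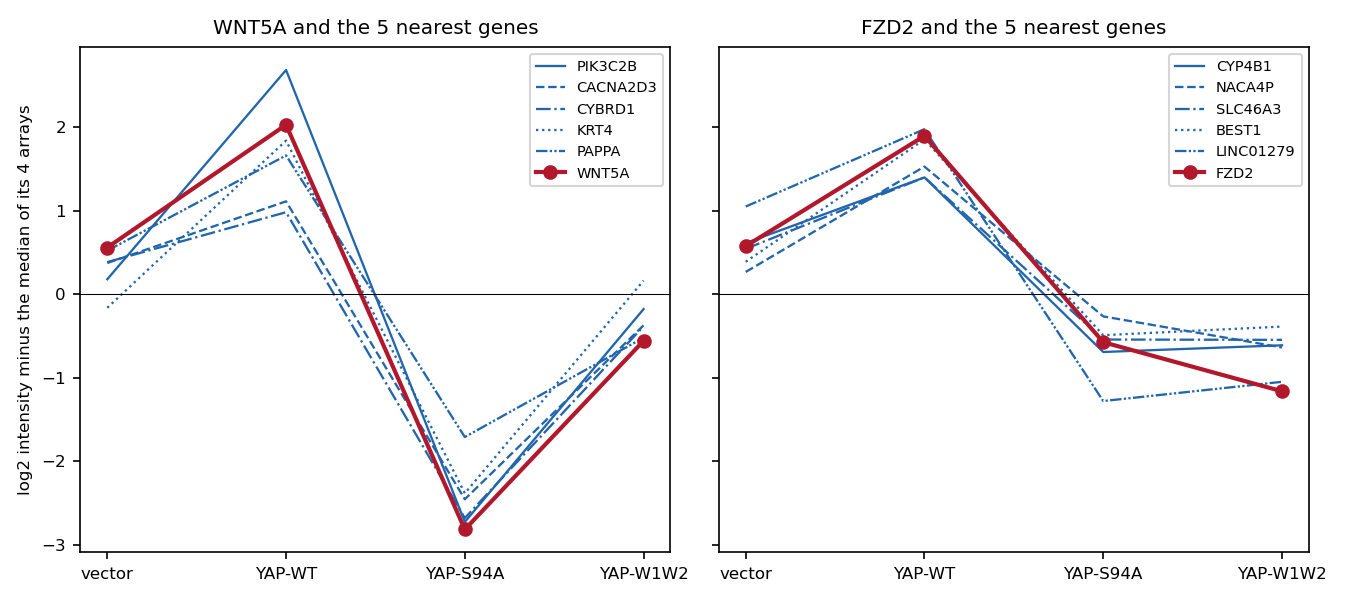
Log2 intensity minus the median of the 4 arrays, for WNT5A (left, red) and FZD2 (right, red) and the 5 genes nearest to each (blue). The WNT5A group has its lowest point in YAP-S94A, while in the FZD2 group YAP-S94A and YAP-W1W2 lie closer together.

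A wider list of 97 Wnt pathway genes was set beside these, of which 92 were represented and 61 measured. At least 2-fold higher than vector were 9 of the 61 for YAP-WT, 12 for YAP-S94A and 12 for YAP-W1W2, and lower were 1, 4 and 4. The shares over all measured genes were 9.11%, 10.3% and 11.4% higher and 4.95%, 6.53% and 8.4% lower, in the same order. The medians of the list were 0.16, 0.04 and −0.13 (log2) against 0.14, 0.14 and 0.10 over all measured genes. As shares of the 61, the counts of the list were 14.8%, 19.7% and 19.7% higher and 1.64%, 6.56% and 6.56% lower.

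In each YAP array most of the other measured ligands and receptors stayed under 2-fold against vector, though several receptors passed it in at least 1 array. Of 5 measured ligands, 0 passed 2-fold against vector in YAP-WT or YAP-W1W2 in either direction, and 2 were higher in YAP-S94A. Those 2 were 40% of the 5, against 10.3% of all measured genes. These were WNT10B, at 127.1 in vector and 289.9 in YAP-S94A, and WNT16, at 132.6 and 361.0. Of 9 measured receptors and co-receptors, FZD1, FZD4 and FZD5 were higher with YAP-WT than with vector and 0 were lower. They were 33.3% of the 9, against 9.11% of all measured genes. With YAP-S94A 2 were higher, FZD5 and LRP5, of which LRP5 was named after its values were seen, and 1 was lower. With YAP-W1W2 FZD1 and FZD5 were higher and 0 were lower. The higher ones were 22.2% in each mutant, against 10.3% and 11.4% of all measured genes. The 1 lower in YAP-S94A was 11.1%, against 6.53% of all. FZD1 read 280.4 for vector, 897.0 for YAP-WT, 309.3 for YAP-S94A and 635.6 for YAP-W1W2, with YAP-S94A close to vector by this probe set, while its 2 measured probe sets ran from 0.14 to 0.75 (log2) there. FZD4 read 90.9, 193.7, 56.8 and 163.0 in the same order, near the floor in vector and under it in YAP-S94A. FZD5 read 164.9, 433.6, 348.9 and 580.7, above vector in each YAP array. ROR1, a WNT5A co-receptor, read 1418.7, 1657.5, 565.8 and 1088.8 by its brightest probe set, and was lower in YAP-S94A than in vector by a log2 difference of −1.33. Its 3 measured probe sets spread from −2.04 to 0.88 in that comparison, so its direction was not settled.

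Among secreted and membrane modulators 8 were measured, of which 2 were at least 2-fold higher and 0 lower with YAP-WT than with vector. With YAP-S94A it was 1 higher and 1 lower, and with YAP-W1W2 it was 2 higher and 0 lower. Higher than vector were thus 25%, 12.5% and 25% of the 8, against 9.11%, 10.3% and 11.4% of all measured genes. Lower were 0%, 12.5% and 0%, against 4.95%, 6.53% and 8.4% of all. SFRP1, a soluble Frizzled-related inhibitor, read 3406.2 for vector, 13000.6 for YAP-WT, 4560.6 for YAP-S94A and 8880.1 for YAP-W1W2. It was highest in YAP-WT, at a log2 difference from vector of 1.93, and its 3 measured probe sets ran from 1.53 to 1.98 there, but from 0.03 to 1.38 in YAP-W1W2. NOTUM, an enzyme that removes the lipid from Wnt proteins, read 169.1, 152.5, 401.8 and 517.6 in the same order, higher in the mutants than in vector or YAP-WT. LGR4, a receptor for R-spondins, read 991.5, 848.2, 457.8 and 774.0, lowest in YAP-S94A. SFRP4 read 133.2, 79.7, 147.4 and 213.8.

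Inside the cell, the destruction complex and cytoplasmic transducers mostly stayed under 2-fold. Of 15 measured genes, 1 differed at least 2-fold from vector in each YAP array, and it was AXIN1, a scaffold of the destruction complex. This 1 higher gene was 6.67% of the 15, against 9.11%, 10.3% and 11.4% of all measured genes for YAP-WT, YAP-S94A and YAP-W1W2. AXIN1 read 97.1 for vector, 543.6 for YAP-WT, 640.8 for YAP-S94A and 506.4 for YAP-W1W2, by 1 measured probe set with a vector value near the floor. The tankyrase TNKS2 was higher in YAP-S94A than in YAP-WT by 1.07 (log2), and its 3 measured probe sets ran from 0.37 to 1.07. Of 11 measured nuclear effectors 1 was higher and 0 lower with YAP-WT than with vector. The YAP-S94A array had 2 higher and 0 lower, and the YAP-W1W2 array 3 higher and 1 lower. In this order of arrays the higher ones were 9.09%, 18.2% and 27.3% of the 11, against 9.11%, 10.3% and 11.4% of all measured genes. The lower ones were 0%, 0% and 9.09%, against 4.95%, 6.53% and 8.4% of all. TCF7L1 was higher than vector in each YAP array, at 95.7 for vector, 313.0 for YAP-WT, 217.5 for YAP-S94A and 238.5 for YAP-W1W2. Its vector value also lay near the floor. LEF1, the transcription factor partner of beta-catenin and itself a target, read 97.3, 183.4, 364.2 and 201.0, near the floor in vector and highest in YAP-S94A. The corepressor TLE2 read 211.6, 339.8, 162.8 and 92.2, and the coactivator BCL9 147.5, 222.1, 280.8 and 339.4.

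Of 8 measured beta-catenin target genes, which share LEF1, NOTUM, RNF43 and ZNRF3 with other lists, 2 were at least 2-fold higher and 1 lower than vector in YAP-WT. In YAP-S94A 5 were higher and 1 lower, and in YAP-W1W2 4 were higher and 1 lower. In this order of arrays the higher ones were 25%, 62.5% and 50% of the 8, against 9.11%, 10.3% and 11.4% of all measured genes. The lower one was 12.5% in each, against 4.95%, 6.53% and 8.4% of all. The medians of the 8 were 0.27, 1.06 and 0.79 (log2), against 0.14, 0.14 and 0.10 over all measured genes. The cyclin CCND1 read 1012.1 in vector and 3163.3 for YAP-WT, 3123.3 for YAP-S94A and 3456.6 for YAP-W1W2, nearly the same in the 3 YAP arrays. The feedback inhibitor NKD1 read 120.3 for vector, 56.1 for YAP-WT, 248.6 for YAP-S94A and 270.5 for YAP-W1W2, under the floor in YAP-WT. APCDD1, a membrane inhibitor of Wnt signalling, read 314.4, 71.0, 112.2 and 18.9, and was lower than vector in all 3 YAP arrays, by at least 4.31-fold in YAP-WT and in YAP-W1W2. AXIN2, the common readout of this branch, was too dim to set beside them.

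Of 9 measured planar cell polarity genes, with YAP-WT 1 was higher and 0 lower than vector, with YAP-S94A 1 was higher and 1 lower, and with YAP-W1W2 2 were higher and 2 lower. In this order of arrays the higher ones were 11.1%, 11.1% and 22.2% of the 9, against 9.11%, 10.3% and 11.4% of all measured genes. The lower ones were 0%, 11.1% and 22.2%, against 4.95%, 6.53% and 8.4% of all. The formin DAAM1 read 1675.7 for vector, 3548.8 for YAP-WT, 1039.4 for YAP-S94A and 4106.5 for YAP-W1W2, but its 4 measured probe sets spread from −0.80 to 1.08 (log2) in YAP-WT against vector. DAAM2 read 65.2, 120.3, 190.1 and 157.1, with vector under the floor. The cadherin-type receptors CELSR2, at 1082.7, 841.2, 504.7 and 408.5, and CELSR1, at 783.5, 562.2, 630.7 and 323.7, were lowest in YAP-W1W2. The 2 measured CELSR2 probe sets ran from −1.10 to −0.17 in YAP-S94A and from −1.41 to −0.46 in YAP-W1W2 against vector, so the second of them stayed under 2-fold in both.

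**Figure D5:**
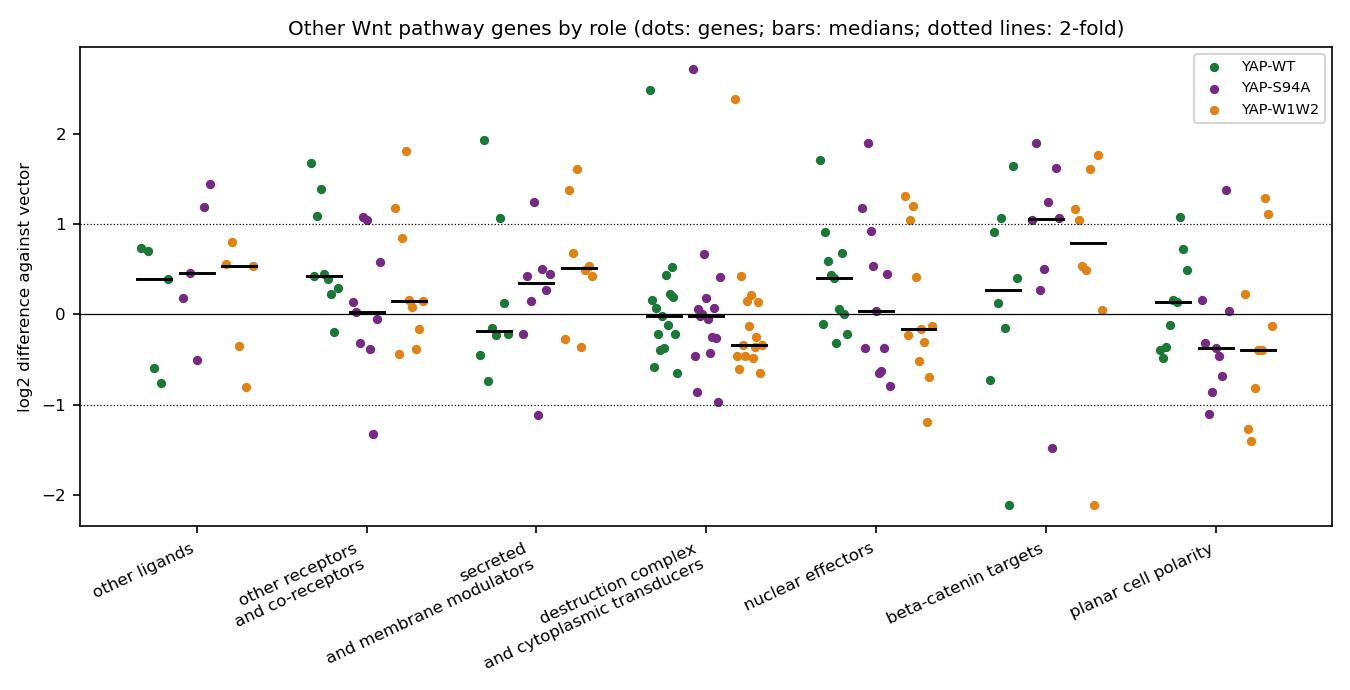
Log2 difference from vector of the measured genes of 7 Wnt pathway lists for each YAP form (colours); each dot is a gene, each bar a list median, and dotted lines mark 2-fold. Most dots lie within 2-fold, and AXIN1 is the point above 2 in each YAP array among the destruction complex genes.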

How the data were processed

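Total RNA of 4 MCF10A cultures was labelled with biotin and hybridised to Affymetrix arrays, per the labels' protocols. The deposited values are probe set intensities on a linear scale. The submitters' processing notes name GCOS, the Affymetrix operating software. Version, scaling target and genome build: not given in the sources used here. Of 54675 probe sets, 62 controls were kept apart. Symbols came from the platform annotation, and probe sets with several symbols were not used.

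Trimmed means (2% from each end) ran from 458.4 to 503.3, so the values were used as deposited. The floor of 72.9, the measured threshold of 113.6 and the 2-fold size rule are described in the text. Each group has 1 array, so no p-value was computed, and the number of arrays limits the precision. All 10 genes are named, with up to 4 measured members per pathway list that passed 2-fold in any comparison, and 5 nearest genes each for WNT5A and FZD2. Cell type markers and CCN2 came from fixed lists. The members and lists were chosen with earlier results of these data known. Calculations used Python 3.11.15, numpy 2.4.6 and pandas 2.3.3, and the fold procedure was tested on simulated data. Alternatives were another floor, an offset, centring, quantile normalization, other probe set choices and no filter on dim genes.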

Additional observations from a re-analysis of the deposited data

How the results depend on the processing

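The counts of Wnt genes at least 2-fold different in the 6 comparisons stayed within 1.5 times under the floor at the 20th percentile, median centring, quantile normalization, probe sets without the _s_at or _x_at suffix and no filter on dim genes. In YAP-S94A against vector 3 became 2 with an offset of 50 in place of the floor and with the mean over probe sets, as FZD2 lost its call. Larger changes were in YAP-WT against vector, where the count of 4 became 2 with that offset and 2 with that mean. In these comparisons the shares over all measured genes, given above, were also lower under that offset and that mean. No called difference of a measured Wnt gene changed sign under any of the settings run for single genes. Of 216 such values, 205 moved by less than 1.5 times and 11 by more, all 11 under the other choices of probe set. The main probe set of every measured Wnt gene lay above the floor on every array. Lowering the floor to the 20th percentile therefore could not change the 36 values under it, their signs or the counts. FZD6 and DKK1 have 1 probe set each, so the other choices of probe set could not move them either. Without _s_at or _x_at probe sets, FZD2 and FZD7 kept their main values. These fixed values are among the 205 and are no check of the results. With the mean over probe sets, FZD2 had log2 values of 0.66 in YAP-WT against vector and of −1.63 and −2.10 in YAP-S94A and YAP-W1W2 against YAP-WT, and WNT7B had 0.80 and 0.94 in the latter comparisons. Without _s_at or _x_at probe sets, WNT5A had −2.02 in YAP-W1W2 against vector and −3.24 against YAP-WT. WNT7B had no fold there, as its other probe set lay under the floor on every array. Its differences entered the 216 as 0, some counted as moved and some not. This setting therefore could not check the sign of the WNT7B calls. No paired analysis was possible because each group has 1 array. Signal near the floor limits WNT5B, WNT7A, WNT10A and AXIN2, and 1 array per group limits every difference.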
